A study of Mus musculus with 2 samples.

Results

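The LIM domain proteins of heart muscle described here are the products of 10 mouse genes chosen by name: Ldb3, Csrp3, Fhl1, Fhl2, Pdlim1, Pdlim3, Pdlim5, Pdlim7, Lmcd1 and Lmo7. All rows of the deposited transcript tables that carry one of these gene names were taken. All 10 genes had reads in both libraries, of 15031 annotated mouse genes with reads in either. Each library is long-read RNA-seq of heart tissue from a female B6CASTF1/J mouse (the first-generation cross of the C57BL/6J and CAST/EiJ strains) of 18-20 months, made from 2 µg of RNA. The 2 libraries form 1 group with no treatment and no second genotype, so the study holds no contrast between conditions. They carry the biological replicate numbers 1 and 2 and come from separate biosamples that share 1 donor entry, so the spread between them may be smaller than that between animals.

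A LIM domain is a cysteine-rich fold held together by zinc that binds other proteins. In heart muscle, LIM proteins sit at the Z-disc, where thin filaments of neighbouring sarcomeres are anchored by alpha-actinin, and some also enter the nucleus. The PDZ-LIM genes (Ldb3, Pdlim1, Pdlim3, Pdlim5 and Pdlim7) place a PDZ domain, which binds alpha-actinin, before their LIM domains. Ldb3, Pdlim5 and Pdlim7 each encode long forms that end in LIM domains and short forms that stop before them, and Ldb3 and Pdlim5 are known for short forms in heart. In an assay in which 1 read is 1 cDNA molecule, the exons joined in a read tell these forms apart.

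The short and long forms part after an exon of 37 bases that Ldb3, Pdlim5 and Pdlim7 share in size and position. It is shown because every read that ran across it included it (147 and 156 reads of Ldb3, 117 and 93 of Pdlim5, 21 and 24 of Pdlim7), and because what follows it decides the form. Sequences are the C57BL/6J reference (mm10, GENCODE M21 transcripts), all 3 on the minus strand and written along the transcript, and capitals mark bases that are the same in all 3 genes.
Ldb3, chr14:34566857-34566893: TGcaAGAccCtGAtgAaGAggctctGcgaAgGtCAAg
Pdlim5, chr3:142303943-142303979: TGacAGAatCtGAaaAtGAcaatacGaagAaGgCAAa
Pdlim7, chr13:55507330-55507366: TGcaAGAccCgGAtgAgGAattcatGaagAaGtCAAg
Of its 37 bases, 17 were the same in all 3 genes. Ldb3 and Pdlim7 shared 26, Pdlim5 and Pdlim7 shared 22 and Ldb3 and Pdlim5 shared 19. The short forms go on into a last exon of their own, whose coding part is shown next because most reads of these genes end in it. Here the capitals mark the stop codon.
Ldb3-203, chr14:34561785-34561881: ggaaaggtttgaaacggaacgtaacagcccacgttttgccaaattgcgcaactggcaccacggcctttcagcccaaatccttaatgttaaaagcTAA
Pdlim5-204, chr3:142303328-142303421: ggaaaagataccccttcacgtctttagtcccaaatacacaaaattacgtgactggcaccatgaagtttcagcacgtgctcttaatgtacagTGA
Pdlim7-203, chr13:55507027-55507123: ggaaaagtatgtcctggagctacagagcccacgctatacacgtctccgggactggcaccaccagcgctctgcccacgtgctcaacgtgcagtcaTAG
These coding ends are 97, 94 and 97 bases long, stop codon included. Joined in their transcripts they give short proteins of 327 codons for Ldb3-203, 234 for Pdlim5-204 and 222 for Pdlim7-203, where the longest annotated forms that reads followed have 723 codons in Ldb3-201, 591 in Pdlim5-201 and 457 in Pdlim7-201.

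The libraries held 642970 and 677209 listed reads, of which 630211 and 664319 were mouse reads outside the added spike-in transcripts. The 7 heart muscle markers summed to 46858 and 42915 CPM (reads per 1000000 scaled mouse reads). The 6 skeletal muscle markers summed to 1.61 and 4.45 CPM, and Myh2, Myh4 and Tnnt3 had no reads. Other marker sums differed between the libraries: 4 atrial markers stood at 1806 and 4318 CPM, 4 fat cell markers at 41.8 and 551 CPM, and 5 red cell markers at 30391 and 11784 CPM in replicates 1 and 2. The part of these differences in any value below was not tested.

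The 10 genes took 2507 reads in replicate 1 and 2364 in replicate 2, which is 0.398% and 0.356% of the mouse reads. Csrp3 and Fhl2 together supplied 74.6% of these reads. A read was taken as 1 molecule, so levels are CPM and were not divided by transcript length. Whether transcript length changes how often a molecule is read was not tested. In whole tissue, fewer cells of a type and less RNA per cell cannot be told apart.

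**Figure D1:**
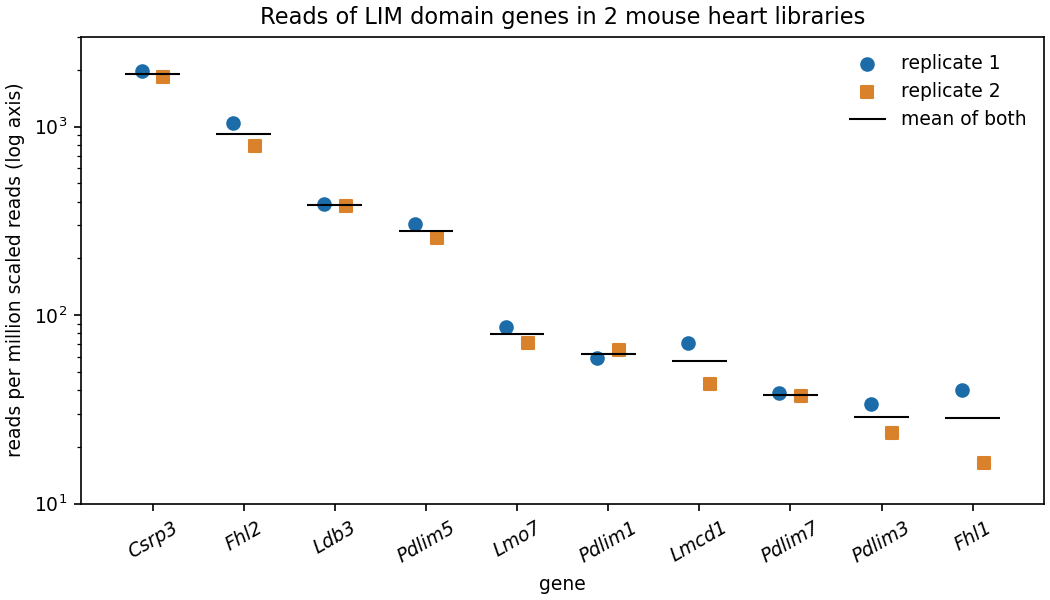
Level of each of the 10 genes (x axis) in CPM on a log axis, with 1 point per library and a bar at the mean of both. Csrp3 stands highest at 1968 and 1826 CPM, and Fhl1 and Pdlim3 have the lowest means.

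Csrp3, which encodes muscle LIM protein of the Z-disc, was the most abundant, with 1223 reads (1968 CPM) and 1230 reads (1826 CPM), a mean of 1897 ± 101 CPM (SD, n = 2), and ranked 75 among all annotated genes with reads. Fhl2, a LIM-only protein that binds titin and transcription factors, followed with 648 reads (1043 CPM) and 535 reads (794 CPM), a mean of 918 ± 176 CPM. Both libraries kept these 2 genes apart from each other and from the rest. Ldb3, which encodes the Z-disc protein Cypher or ZASP, had 242 and 254 reads, 389 and 377 CPM. Pdlim5, the gene of Enigma homolog, had 189 and 172 reads, 304 and 255 CPM. These PDZ-LIM genes did not overlap in level either.

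The other 6 genes lay below 100 CPM. Lmo7, whose protein is found at cell junctions and binds the nuclear envelope protein emerin, had 54 and 48 reads, 86.9 and 71.2 CPM. Pdlim1 had 37 and 44 reads, 59.5 and 65.3 CPM. Lmcd1, a partner of GATA transcription factors, had 44 and 29 reads, 70.8 and 43.0 CPM. The ranges of Pdlim1 and Lmcd1 overlapped, so their order is not fixed by 2 libraries. Pdlim7 had 24 and 25 reads, 38.6 and 37.1 CPM. Pdlim3, the gene of the actinin-associated LIM protein, had 21 and 16 reads, 33.8 and 23.7 CPM. Fhl1, a LIM-only protein of striated muscle, had 25 and 11 reads, 40.2 and 16.3 CPM, and its range overlapped that of Pdlim3. It also took in the range of Pdlim7, above which Fhl1 stood in replicate 1 and below which it stood in replicate 2. The order of Pdlim7, Pdlim3 and Fhl1 is therefore not fixed either. All other neighbours in this order were apart in both libraries. This is a description of 2 libraries, and the order was not tested against counting error. Some of these neighbours were close: in replicate 2, Lmo7 stood at 71.2 and Pdlim1 at 65.3 CPM, and Lmcd1 at 43.0 and Pdlim7 at 37.1 CPM.

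Reads per gene were compared between the libraries with an exact two-sided binomial test over the 7545 genes with at least 10 reads, at a Benjamini-Hochberg adjusted p of 0.05. The test sets 2 libraries against counting error and says nothing of conditions. Fhl2 was the 1 gene of the 10 that differed: it was 1.31-fold higher in replicate 1 (95% interval 1.17 to 1.48, adjusted p = 0.000295 by the exact binomial test). Of all genes tested, 2.07% differed in either direction and 0.861% were higher in replicate 1. Reads of annotated Fhl2 transcripts alone, 490 and 445, gave a log2 ratio of 0.26 and an adjusted p of 0.19 by the same exact test, so the call rests in part on reads of other classes. Csrp3 (1.08-fold, interval 0.995 to 1.17), Ldb3 (1.03-fold, 0.863 to 1.24) and Pdlim5 (1.19-fold, 0.964 to 1.47) did not pass. Fhl1 had the widest ratio, 2.46-fold higher in replicate 1 (interval 1.17 to 5.55), at an adjusted p of 0.25 by the exact test, and Lmcd1 stood at 1.64-fold (1.01 to 2.73) with an adjusted p of 0.49. The median log2 ratio was 0.27 over the 10 genes and -0.00 over all genes tested.

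**Figure D2:**
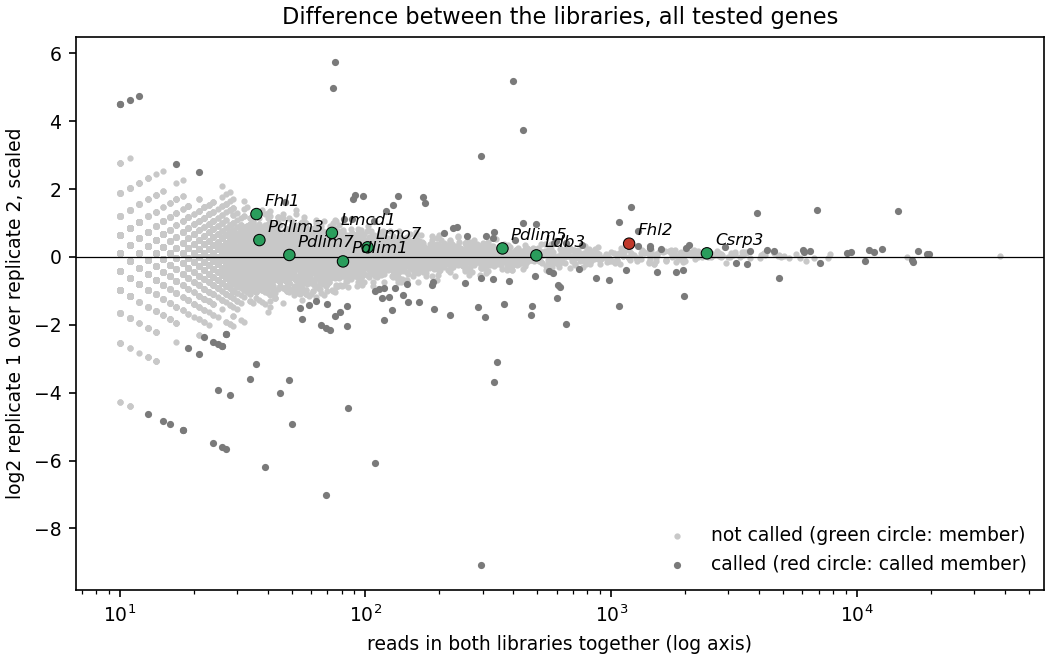
The log2 ratio of replicate 1 over replicate 2 (y axis) against the reads of both libraries together (x axis, log) for 7545 genes, with grey points for called and uncalled genes and circles for the 10 LIM genes. Fhl2 is the 1 circle past the threshold, and the circles of Fhl1, Lmcd1 and Pdlim3, with fewer than 100 reads each, spread more widely than those of Csrp3 and Ldb3.

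Each deposited model has a class: Known for an annotated chain of exons, ISM for an incomplete match to one, NIC for new joins of known splice sites, NNC for at least 1 new splice site, and Genomic for reads that follow no chain. Known reads made up 61.7% and 64.9% of the reads of the 10 genes, beside 69.9% and 68.6% over all annotated genes. The members differed widely. Fhl2 had 75.6% and 83.2% Known reads and Csrp3 73.5% and 76.2%. Pdlim1 followed with 62.2% and 59.1%, and Ldb3 with 43.0% and 42.1%. Pdlim5 had 0 Known reads of 189 in replicate 1 and 2 of 172 in replicate 2. Lmo7 had none in 102 reads of both libraries, which allows a share of up to 2.94% by counting error.

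Class names changed between the libraries for some leading chains. Pdlim5 had 97 NNC and 3 NIC reads in replicate 1 but 6 NNC and 72 NIC reads in replicate 2. Its leading chain of 9 exons was the same in both, but was listed as NNC in the first (88 reads) and as NIC in the second (61 reads). Pdlim7 showed the same turn, with its leading chain at 15 NNC reads and 17 NIC reads. The 206 models of the 10 genes were matched by transcript ID or exon chain, or by overlap of listed spans if unspliced. Of these models, 76 occurred in both libraries, 4 of them under different class names, and 103 rested on 1 read. Listed spans of unspliced models could differ widely between the libraries, as in Ldb3 below, so the count of 76 may be too low. Forms are described below by their exons.

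**Figure D3:**
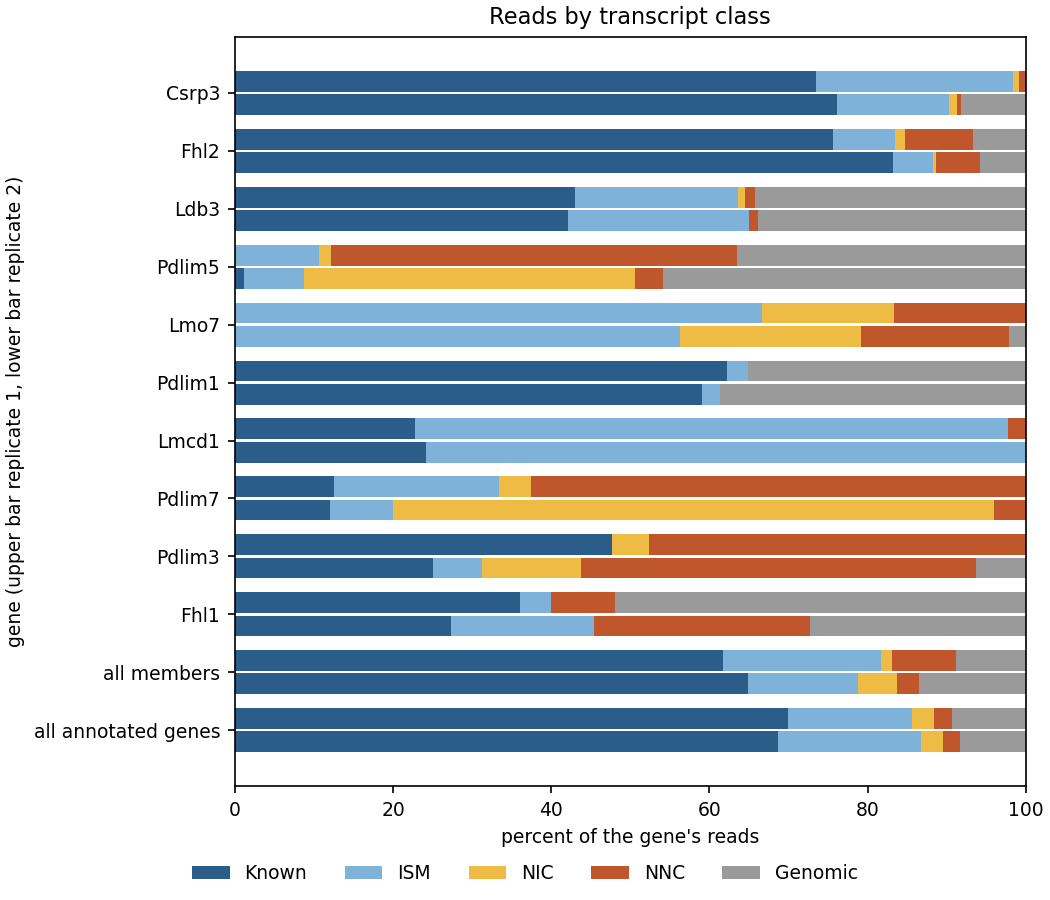
Share of each gene's reads by transcript class (x axis, percent), with replicate 1 as the upper and replicate 2 as the lower bar, for the 10 genes, their sum and all annotated genes. Known reads dominate in Csrp3 and Fhl2, and the NNC block of Pdlim5 and Pdlim7 in replicate 1 stands as NIC in replicate 2.

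Ldb3 (chr14:34526603-34588682) was read mainly as a short form. Of spliced reads outside the Genomic class, 133 of 159 (83.6%, exact 95% interval 77.0 to 89.0) and 136 of 168 (81.0%, 74.2 to 86.6) ended in the short last exon. The long form with its LIM domains took 26 reads (16.4%, 11.0 to 23.0) and 31 reads (18.5%, 12.9 to 25.2). Both libraries gave the same order, and the 2 shares differed by less than counting error. The last exon has 2947 bases in Ldb3-201 and 610 in Ldb3-203. A read cut short within the last exon is not spliced, so these shares may undercount the long form. The size of this loss was not tested, and the intervals do not cover it. Unspliced Ldb3 reads of the Genomic class were also listed at the 2 last exons, with 13 of 76 (17.1%, 9.43 to 27.5) and 13 of 80 (16.2%, 8.95 to 26.2) at the long form's. Their listed spans were 1 and 2548 bases at the long end and 2896 and 12 bases at the short end in replicates 1 and 2, so these spans do not fix where the reads lie, and the values are a description. The known short transcript Ldb3-203 alone had 101 and 102 reads, where the long transcript Ldb3-201 had 3 and 3.

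Few long-form reads reached the start of the gene. Of the long reads, 6 of 26 and 6 of 31 began in the first exon of an annotated coding transcript with the same end, against 103 of 133 and 102 of 136 short reads, and these intervals did not overlap. Ldb3-201 is 5119 bases long and Ldb3-203 is 1586. Of the incomplete chains with at least 5 reads in each library, 1 short chain of 7 exons had 14 and 15 reads, a short chain of 4 exons had 9 and 11, and a long chain that began at the 170-base exon before the 37-base exon had 5 and 11.

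The middle of Ldb3 was the heart-type arrangement in every read that crossed it. The exon of 359 bases at chr14:34576986-34577344, on the minus strand, is shown because all 124 and all 127 spanning reads included it, 251 of 251 together.
Ldb3 359-base exon, first 100 bases: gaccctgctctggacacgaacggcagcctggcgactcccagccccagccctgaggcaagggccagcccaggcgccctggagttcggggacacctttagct
The annotation places exons of 23, 204 and 15 bases at the same point of other transcripts (Ldb3-207 among them), the arrangement known from skeletal muscle. The 2 smallest are chr14:34572990-34573012 and chr14:34569713-34569727.
Ldb3 23-base exon: gtggtagccaattctccagccaa
Ldb3 15-base exon: ggcgtctccgctggc
None of 140 and 141 spanning reads included any of the 3, which allows a share of up to 1.07% over both libraries. Among long-form reads the 186-base exon at chr14:34555343-34555528 varied: 13 of 15 and 16 of 23 spanning reads included it. The other internal exons of Ldb3-201 were included in every long-form read that crossed them.

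**Figure D4:**
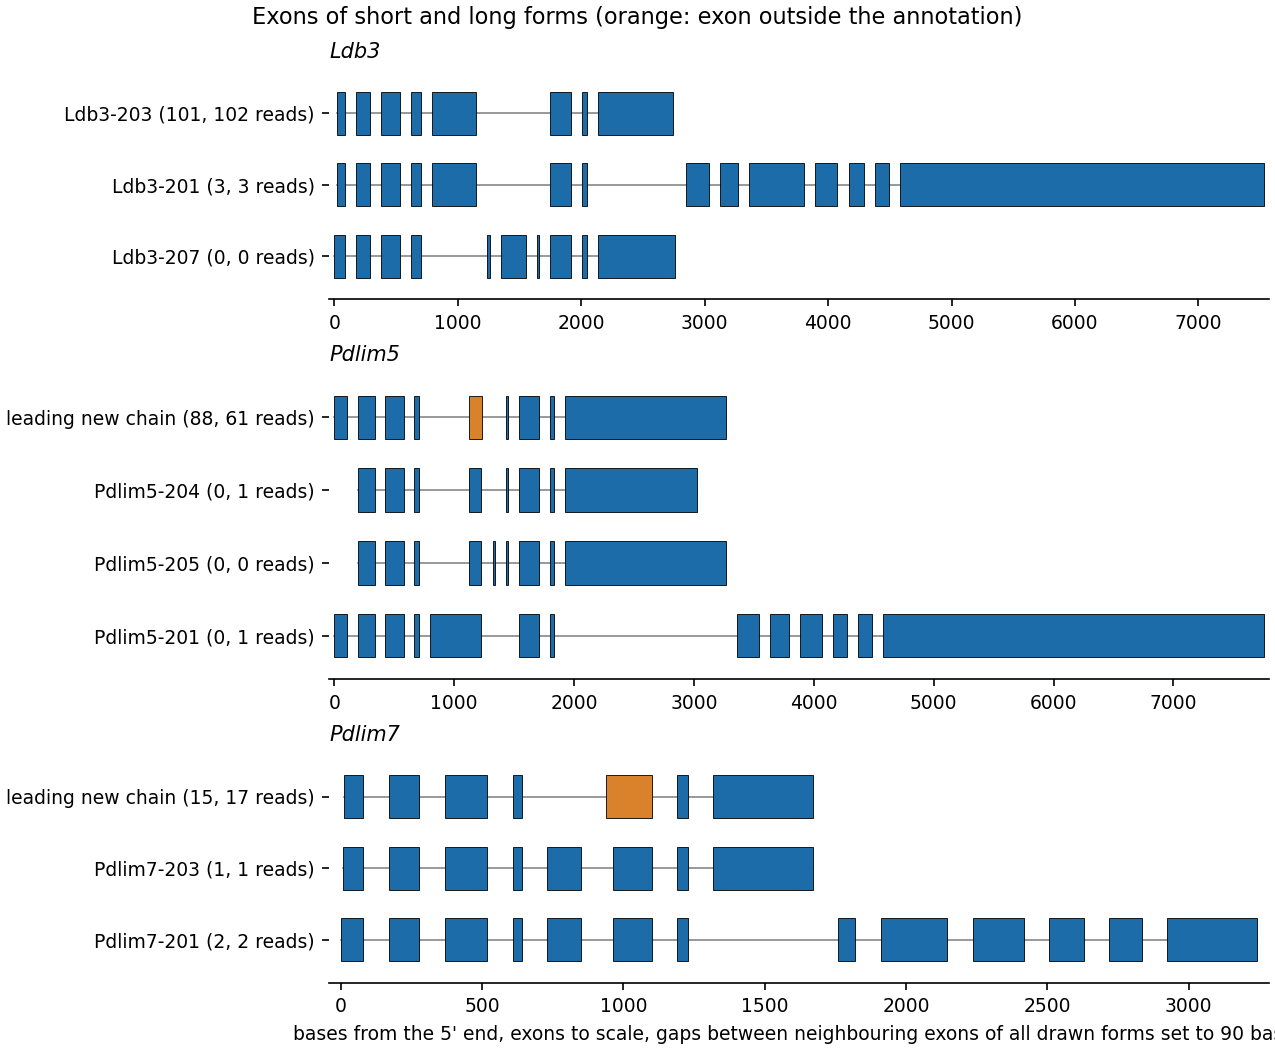
Exons of the leading and annotated forms of Ldb3, Pdlim5 and Pdlim7, drawn to scale from the 5′ end in bases with gaps between neighbouring exons set to 90 bases, and reads of each form in replicates 1 and 2 in brackets. The short forms end at the exon after the 37-base exon, and the orange exons of Pdlim5 and Pdlim7 are not in the annotation.

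Pdlim5 (chr3:142239590-142395696) was read almost wholly as short forms. Short last exons closed 118 of 120 and 89 of 93 spliced reads, and the long form took 1 read (0.833%) and 4 reads (4.30%, 1.18 to 10.6). The last exon of Pdlim5-201 has 3180 bases and that of Pdlim5-205 has 1342, so Pdlim5 shares may undercount the long form as in Ldb3. Of unspliced Genomic reads listed at its last exons, 0 of 69 and 1 of 78 were at the long one, with the same limit on spans as for Ldb3. Of short reads, 106 of 118 and 81 of 89 began in the first exon of an annotated coding transcript with the same end. That count takes in the 138-base exon that opens Pdlim5-204 and Pdlim5-205 but is the second exon of Pdlim5-203. Over all spliced reads, 96 of 120 and 75 of 93 began in the first exon of Pdlim5-203. A further 12 and 10 began in the 138-base exon.

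Almost none of these reads followed an annotated chain. Only 4 of 120 (3.33%) and 5 of 93 (5.38%) Pdlim5 reads had all introns in the annotation, the lowest share of the 10 genes in both libraries. A single exon accounts for most of this. Of spliced reads with both the 43-base exon before it and the 173-base exon after it, 109 of 110 and 83 of 89 held an exon of 106 bases (chr3:142312109-142312214). The annotated exon of 92 bases stood there in 1 and 4 reads. The 2 exons share their upstream edge, and the longer one runs 14 bases past the annotated downstream edge. The annotated exon (chr3:142312123-142312214, minus strand) and the small exons annotated after it (chr3:142306284-142306298 and chr3:142304705-142304722) are shown because the reads differ from the annotation here. The added 14 bases were not analysed here as sequence.
Pdlim5 92-base exon: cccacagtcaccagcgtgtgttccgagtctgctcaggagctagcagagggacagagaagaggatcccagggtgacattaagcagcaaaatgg
Pdlim5 15-base exon: taaccctggcactgt
Pdlim5 18-base exon: gaaaattccacctaaacg
The 18-base exon followed in 107 of 110 and 83 of 89 of these reads. The 15-base exon was listed in none of them. Since the listed edges differ from the annotation by 14 bases beside it, this is a count of listed exons: whether the added bases are those of the 15-base exon was not tested, and no limit is given for its share. Between the shared 43-base and 173-base exons, the leading chain therefore held 124 bases (exons of 106 and 18). The annotated short transcript with all 3 small exons, Pdlim5-205, holds 125 bases there (92, 15 and 18) and Pdlim5-204 holds 110 (92 and 18). Divided by 3, the annotated stretches of Pdlim5-201, Pdlim5-203, Pdlim5-204 and Pdlim5-205 leave a remainder of 2 and the leading chain leaves 1, so that the reading frame after the exon is not that of the annotated forms if the listed edges are exact. A chain of 8 exons with the same new exon and a later start had 11 and 8 reads and was listed as ISM. Of spliced ISM reads of Pdlim5, 16 of 20 and 13 of 13 held an intron outside the annotation.

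Pdlim7 (chr13:55495795-55513676), the gene of Enigma, had few reads but the same layout. The short last exon closed 18 of 21 spliced reads (85.7%, 63.7 to 97.0) and 19 of 24 (79.2%, 57.8 to 92.9), and the long form took 3 and 5. Its leading chain of 7 exons, with 15 and 17 reads, also differed from the annotation at 1 exon. Between the 31-base and 37-base exons, an exon of 162 bases (chr13:55507488-55507649) stood in 15 of 21 and 18 of 22 reads and the annotated exon of 137 bases in 6 and 4, the longer one with 25 bases added at its upstream edge. The annotated 119-base exon before it was included in 4 of 21 and 3 of 22 of these reads. The annotated 17-base exon was listed in none, with the same limit as for Pdlim5. Between these shared exons the new chain held 162 bases, which leaves a remainder of 0 when divided by 3. Pdlim7-201 and Pdlim7-203 hold 256 bases there and Pdlim7-202 holds 154, and all 3 leave 1. In both Pdlim5 and Pdlim7 the exon outside the annotation thus stood next to an annotated exon of under 20 bases that no read listed. What sets these exon edges was not tested.

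**Figure D5:**
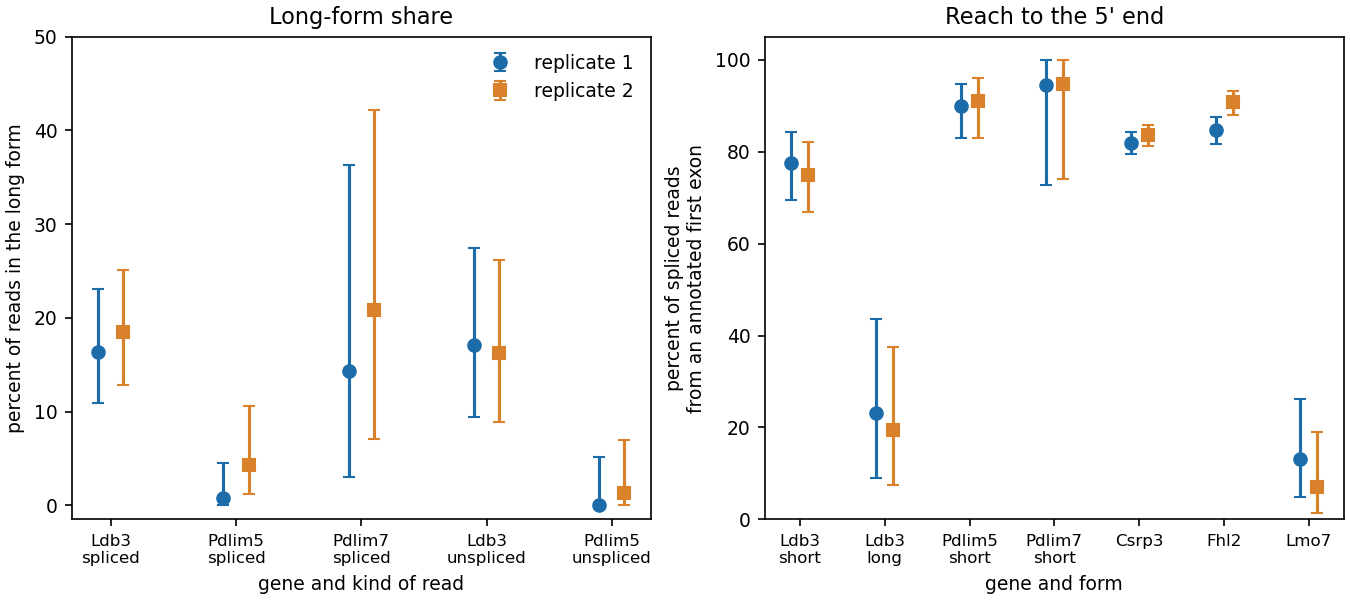
Left, percent of reads in the long form of Ldb3, Pdlim5 and Pdlim7, from spliced reads and from unspliced reads listed at the last exons. Right, percent of spliced reads that began in the first exon of an annotated coding transcript with the same end; points are the 2 libraries and bars exact 95% intervals. Of the forms drawn, the long form of Ldb3 and the reads of Lmo7 began in such an exon least often.

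In its annotated coding transcripts, Pdlim3 (chr8:45885461-45919548) carries 1 of 2 alternative middles. They are an exon of 188 bases (chr8:45908469-45908656), or exons of 68 bases (chr8:45909019-45909086) and 264 bases, all on the plus strand. The first 2 are shown because reads used both.
Pdlim3 188-base exon: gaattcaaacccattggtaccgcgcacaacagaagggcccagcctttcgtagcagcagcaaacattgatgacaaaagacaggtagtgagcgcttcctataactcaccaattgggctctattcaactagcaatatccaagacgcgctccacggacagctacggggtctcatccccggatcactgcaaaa
Pdlim3 68-base exon: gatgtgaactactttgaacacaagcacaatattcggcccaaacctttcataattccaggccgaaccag
The 188-base exon, of Pdlim3-201, was in 9 of 11 and 4 of 7 spanning reads. The 68-base exon was in 2 of 11 and 3 of 7, and the 264-base exon in 1 of 11 and 1 of 7. Some reads thus held the 68-base exon without the 264-base exon, a middle outside those 2. With so few reads the exact intervals of the libraries overlap. Pdlim3-201 itself had 9 and 3 reads. A chain of 3 exons that is not annotated, beginning in an exon that ends at chr8:45917016 inside the gene, had 10 and 8 reads, and so 10 of 21 and 8 of 15 spliced reads did not begin at the annotated start. Pdlim1 (chr19:40221173-40271842), the gene of CLP-36, showed 1 form: Pdlim1-201 held 23 of 24 and 26 of 27 reads outside the Genomic class. A further 13 and 17 unspliced Genomic reads were listed at its last exon.

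Csrp3 (chr7:48830398-48848033) had 1 main form, Csrp3-201, of 877 bases and 194 codons, with 898 and 937 reads. Next came a chain of the last 2 exons alone (136 and 139 reads), then chains of the last 5 exons (34 and 27) and the last 4 (12 and 6), each an incomplete match to it. Reads from the first exon of Csrp3-201 made up 904 of 1104 and 944 of 1129 spliced reads. The alternative first exon annotated in Csrp3-203, within the gene, opened a complete chain in 8 and 10 reads, and that of Csrp3-202 opened 1 read in replicate 1.

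The share of the leading transcript among a gene's reads was compared with Fisher's exact test over 3925 genes, with the Genomic class left out. Csrp3 was the 1 member of the 9 tested that differed: Csrp3-201 held 73.4% of reads in replicate 1 and 83.0% in replicate 2 (adjusted p = 3.57e-06, Fisher's exact test), beside 1.86% of all genes called. This difference came from 1 unspliced model at the end of the gene. It was listed as ISM in replicate 1, with 119 reads over 309 bases, and as Genomic in replicate 2, with 101 reads over 8 bases. With the Genomic class kept in both libraries, Csrp3-201 held 73.4% and 76.2% (adjusted p of 1), and 2.71% of all genes were called. Among spliced reads alone it held 81.3% and 83.0% (adjusted p of 1). In that setting 0 of 3742 genes were called by Fisher's exact test, against 131 at an unadjusted p under 0.05. With the unspliced models, 73 of 3925 were called.

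Fhl2 (chr1:43123074-43196984) was led by Fhl2-202 with 489 and 443 reads, 80.8% and 87.9% of reads outside the Genomic class. The difference of -7.07 points (replicate 1 minus replicate 2) did not pass (adjusted p = 0.069, Fisher's exact test, raw p = 0.00132). Its second chain is not annotated. It held all exons of Fhl2-202 but the first, and began in an exon of 67 bases (chr1:43198275-43198341) that lies up to 1357 bases upstream of the annotated gene start. The chain had 36 and 17 reads, and all chains from this exon together had 38 of 605 (6.28%) and 18 of 504 (3.57%). Incomplete matches of 2 to 5 final exons followed, the chain of 2 exons with 21 and 5 reads, of 3 with 12 and 8, of 4 with 6 and 9 and of 5 with 9 and 5. The annotated exon at chr1:43153076-43153254 was skipped in 5 of 553 and 2 of 475 spanning reads. Replicate 1 held more reads than replicate 2 in the Known class (490 and 445), in ISM (51 and 27) and in NNC (56 and 30). The pseudogene Gm8210 overlaps Fhl2 on the opposite strand, and no source used here says whether counting was by strand.

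Fhl1 (chrX:56731787-56793346) was read as 2 annotated forms that differ at the start. Fhl1-201 had 6 and 2 reads and Fhl1-204 had 3 and 1. A chain from a first exon outside the annotation had 1 and 3. The 200-base exon of Fhl1-203, which gives the long protein of 323 codons where Fhl1-201 gives 280, was in none of 12 and 8 spanning reads. With 20 reads this allows a share of up to 15%. Unspliced Genomic reads listed at the last exon numbered 13 in replicate 1 and 3 in replicate 2, where spliced reads numbered 12 and 8. Their listed spans were 2108 and 753 bases, against 1503 bases for the last exon of Fhl1-201, with the same limit on spans as for Ldb3.

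Lmcd1 (chr6:112273758-112330425) has 1 annotated transcript, Lmcd1-201, which 10 and 7 reads followed. Most reads, 29 of 44 and 21 of 29, were 1 unspliced model of 618 bases that is the whole last exon, listed as ISM in both libraries. Spliced reads numbered 15 and 8, and 11 and 7 of these began in the annotated first exon. An antisense gene, 5031434C07Rik, overlaps Lmcd1 on the opposite strand, with the same limit on strand as for Fhl2. Another gene, Gm44193, overlaps Lmcd1 on the same strand, and its part in the Lmcd1 reads was not tested.

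Lmo7 (chr14:101729957-101934710) is the longest of the 10 genes and had no read of a whole annotated transcript. Spliced reads ended in its annotated last exon in 46 of 48 and 43 of 45 cases, but 6 and 3 of these began in the first exon of an annotated coding transcript with that end. The leading chain, with 22 exons and 12 and 7 reads, began in an exon ending at chr14:101884414, as did 22 and 18 spliced reads in all. This edge closes the annotated first exon of Lmo7-208 and Lmo7-214, which are retained-intron transcripts and so outside the count of coding starts. It also closes an internal exon of Lmo7-201. Whether these reads begin at a true start was not tested. Over all spliced reads that spanned them, whatever their start, most skipped the exons of 282 bases and 720 bases. These exons were included in 8 of 37 and 10 of 30, and in 6 of 35 and 9 of 29 reads.

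Nearer its end, Lmo7 held an exon of 42 bases (chr14:101915893-101915934) that is not annotated, in 34 of 40 and 31 of 36 spliced reads with both neighbouring exons. The annotated exon between the same neighbours, of 57 bases on the plus strand (chr14:101915688-101915744), is shown because it was nearly absent, in 3 of 40 and 2 of 36.
Lmo7 57-base exon: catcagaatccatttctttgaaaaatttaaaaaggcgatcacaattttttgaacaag
Both sizes are multiples of 3. The letters of the 42-base exon were not analysed here. Reads with it were still listed as ISM in part, since 24 of 30 and 19 of 25 spliced ISM reads of Lmo7 held an intron outside the annotation.

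The share of the leading last exon could be tested in 7 of the 10 genes (Csrp3, Fhl2, Ldb3, Lmo7, Pdlim3, Pdlim5 and Pdlim7). Fisher's exact test called 0 of the 7, and 0 at an unadjusted p under 0.05, beside 0.0544% of 1839 genes called. For Ldb3 the short last exon was 2.70 points higher in replicate 1, and for Pdlim5 2.63 points.

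A list of 44 other LIM domain genes was read beside the 10. Reads were found for 40, and 27 could be tested: 0 were higher in replicate 1 and 1 in replicate 2, where 1.21% of all genes tested were higher in replicate 2. Their median log2 ratio was 0.06. The highest levels were those of Crip2, a cysteine-rich LIM-only protein, at 2092 and 2001 CPM, and its relative Crip1 at 438 and 405 CPM. Crip2 thus stood with Csrp3 above the other LIM genes in both libraries. Nrap, a LIM protein of assembling myofibrils, had 121 and 132 CPM, Fblim1 153 and 96.5 CPM, and the actin-binding Ablim1 61.1 and 65.3 CPM. Lims2, an adaptor of integrin adhesions, was the called gene, with 11 and 44 reads and 3.69-fold higher in replicate 2 (interval 1.88 to 7.92, adjusted p = 0.00253, exact binomial test).

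Of 32 Z-disc and sarcomere partners, 31 had reads and 28 were tested, with a median log2 ratio of -0.03. Of these 28, 2 were higher in replicate 2, beside 1.21% of all genes tested. Tcap, the titin cap that binds Csrp3, was the most abundant at 2884 and 4466 CPM and was 1.55-fold higher in replicate 2 (interval 1.46 to 1.64, adjusted p = 2.75e-47, exact binomial test). Desmin (Des) had 2213 and 2039 CPM, the chaperone Cryab 1767 and 1646 CPM, alpha-actinin (Actn2), the partner of the PDZ domains, 1427 and 1474 CPM, and Nexn 1067 and 987 CPM. These 4 did not pass the same test. Ankrd1, a stress-responsive titin partner, was 1.63-fold higher in replicate 2 (1.32 to 2.02, adjusted p = 0.000295 by the exact binomial test). The call of Ankrd1 was lost with Known reads alone and with the Genomic class left out (adjusted p of 0.11 and 0.23 by the exact test), at log2 ratios of -0.62 (71 and 119 reads) and -0.49 (89 and 136 reads) against -0.70 with all 139 and 246 reads.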

How the data were processed

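The 2 heart libraries of 1 group were analysed. The deposited tables give read counts per transcript model and library, and the deposited transcript annotations give the exons; per the file headers the models were named by TALON, and per the labels the build is mm10. The annotation used here is GENCODE M21. No source used here names the aligner, the versions or any filter on models. Of 10 genes all rows were kept. Models were joined between libraries by transcript ID, by exon chain, or, if unspliced, by 50% reciprocal overlap. Library sizes were mouse reads scaled by TMM (edgeR 4.0.16; genes with at least 10 reads). Counts were compared with exact binomial and Fisher's exact tests (scipy 1.17.1), adjusted by Benjamini-Hochberg over all genes tested at 0.05, and the scripts were tested on simulated data. Shares in transcripts needed 10 reads in each library. Intervals are exact (Clopper-Pearson, 95%), log2 ratios add 0.5 reads, and limits for 0 reads use 3 counts; all cover counting error only. Depth was 630211 and 664319 mouse reads. Inclusion was counted over spliced reads that span an exon's neighbours. No column was left out. The members and lists were chosen with earlier results of these data known. Named were all members, the 5 highest and all called genes of each other list, known transcripts with at least 10 reads, and new spliced chains with at least 5 reads in each library; 1 item of the partner list is not reported here, and other chains and exons were chosen after their values were seen. Alternatives covered library sizes (DESeq2 1.42.0 size factors, total reads), read classes, filters and single libraries.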

Additional observations from a re-analysis of the deposited data

How the results depend on the processing

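With Known reads alone, 0 of the 7 genes that could be tested differed between the libraries, since Fhl2 lost its call. Of all 5399 genes tested in that setting, 2.06% differed. With the Genomic class left out, 2 of 10 did, beside 3.20% of 6712 genes: Fhl2, and Csrp3 at a log2 ratio of 0.23 and an adjusted p of 0.00494 by the exact test, where its unspliced model was kept as ISM in replicate 1 (119 reads) and removed as Genomic in replicate 2 (101 reads). So did 2 of the other LIM domain genes, where Ablim1 turned from a log2 ratio of -0.09 to 2.68 (32 and 5 reads). The leading transcript share called 0 of 3 members with Known reads alone, beside 0 of 1745 genes. It called 0 of 10 with the Genomic class kept, beside 2.71% of 4545 genes. With spliced models alone, a setting chosen after seeing the data, it called 0 of 8, beside 0 of 3742 genes. The mean long-form share of Ldb3, 17.4%, fell to 3.78% with Known reads alone and 4.56% without ISM, because most long reads are incomplete; with Known reads alone that of Pdlim5 was 50% of 2 reads and that of Pdlim7 66.7% of 6. Scaling by total reads or DESeq2 size factors changed no call of a member. No paired analysis was possible because the libraries form 1 group. Genes under 100 reads could show only large differences.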
